A study of Mus musculus with 8 samples.

Results

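Plk2, Ccng1, Mdm2, Cdkn1a, Btg2, Aen, Bax, Trp53inp1, Phlda3 and Zmat3 are 10 genes that p53 is known to activate. They were taken as a list of symbols from 4 tables of differential expression, and all 10 were present among the 15571 genes that the 4 tables share. TT-seq measured the RNA that mouse embryonic stem cells made during a 5 min pulse of 500 nM 4-thiouridine, a uridine analogue by which new transcripts can be pulled out of total RNA. Levels and changes below therefore concern newly made RNA, not the standing mRNA pool.

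All 8 libraries came from ES-E14TG2a (E14), an embryonic stem cell line of male origin. The mutant lines carry K122A, a lysine to alanine change in histone H3.3, the variant that enters chromatin outside DNA replication and is encoded by H3f3a and H3f3b. Dual-targeted lines numbered 3 and had 3 mutant alleles of 4. They were 2 clones with H3f3a A/A H3f3b WT/A plus 1 line of genotype H3f3a WT/A H3f3b A/A. Single-targeted lines numbered 2 and had 2 mutant alleles of 4, one of genotype H3f3a A/A H3f3b WT/WT, the other of genotype H3f3a WT/WT H3f3b A/A. Wildtype cells, with no mutant allele, gave 3 libraries from biological replicates. No other treatment was labelled, and the labels name a LIF medium and a LIF+2i medium without assigning one to these libraries. Each mutant line was profiled once, so the spread behind a p-value is that between lines on the mutant side and between replicates on the wildtype side.

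Of the targeted genes, H3f3b was uneven among the dual-targeted lines. Solved from the deposited means, its level was 4846 normalized counts in the clones, 367 in the third dual-targeted line (genotype H3f3a WT/A H3f3b A/A), 1877 in single-targeted lines and 2514 in wildtype cells. That 1 library therefore stood apart, and many results that change without that library are given both ways below. A result given only with that library is not thereby shown to hold without it. In the clones alone H3f3b rose by 0.84 ± 0.27 (log2, adjusted p = 0.00351), while the pooled dual-targeted value was 0.06 ± 0.36 (adjusted p = 0.8), both per the authors' deposited tables. H3f3a was at 0.13 ± 0.19 (adjusted p = 0.633) in dual-targeted lines per the authors' deposited table. The mutation changes a codon, so these levels do not test the labels.

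p53 is a transcription factor that cells hold at a low level through Mdm2, which marks it for destruction. When DNA is broken, ribosomes are made wrongly or replication stalls, p53 is released from Mdm2 and switches on genes that stop the cell cycle, start cell death, aid repair or, like Mdm2 itself, switch p53 off again. Embryonic stem cells express p53 abundantly, and there it is also known to repress pluripotency genes after damage.

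p53 binds DNA at 2 copies of a 10-base element, so the promoter windows of the genes are shown for how closely they spell it. Sequences came from RefSeq (build GRCm38.p6), from 250 bases before to 50 bases after an annotated start, and 8 of the 10 genes had such a window. Trp53inp1 and Zmat3 had none. Capitals in the 300-base windows mark the 20 bases closest to 2 consensus elements in a row. Ccng1 (chr11:40755237-40755536, minus strand) and Cdkn1a (chr17:29090729-29091028, plus strand, the upstream of its windows) held the closest, each with 1 mismatch. Plk2 (chr13:110394794-110395093, plus strand) is shown because its fold change was the highest of the 10.
Ccng1: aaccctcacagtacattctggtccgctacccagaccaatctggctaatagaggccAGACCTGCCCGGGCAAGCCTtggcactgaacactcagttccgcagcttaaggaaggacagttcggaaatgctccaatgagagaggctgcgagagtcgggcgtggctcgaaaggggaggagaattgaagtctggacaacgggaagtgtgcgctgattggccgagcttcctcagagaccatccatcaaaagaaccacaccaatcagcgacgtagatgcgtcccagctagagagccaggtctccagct
Cdkn1a: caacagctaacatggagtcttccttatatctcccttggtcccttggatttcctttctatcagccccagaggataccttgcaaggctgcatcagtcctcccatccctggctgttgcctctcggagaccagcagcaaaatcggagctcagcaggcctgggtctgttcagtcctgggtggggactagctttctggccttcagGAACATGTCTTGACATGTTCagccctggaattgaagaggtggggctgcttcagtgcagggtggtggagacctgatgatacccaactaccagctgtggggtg
Plk2: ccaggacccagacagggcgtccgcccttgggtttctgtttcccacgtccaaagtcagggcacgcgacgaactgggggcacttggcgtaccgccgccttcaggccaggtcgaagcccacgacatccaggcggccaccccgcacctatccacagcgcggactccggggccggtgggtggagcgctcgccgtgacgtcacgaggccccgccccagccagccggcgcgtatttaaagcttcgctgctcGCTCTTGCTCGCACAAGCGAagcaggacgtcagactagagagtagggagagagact

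The closest 20 bases of the best window of each gene are set side by side to show where the genes depart from the consensus. Capitals now mark bases that fit the consensus and lower case marks mismatches, of which Aen and Bax have 3, Btg2 has 4, and Mdm2, Phlda3 and Plk2 have 5.
Ccng1: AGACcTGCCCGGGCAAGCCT
Cdkn1a: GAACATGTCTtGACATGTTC
Aen: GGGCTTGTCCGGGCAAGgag
Bax: AGcaTAtCCCAGGCAAGCTT
Btg2: GGGaAAGTCCGGGCAgagCC
Mdm2: GAACTTGCCTAGcgAccaTT
Phlda3: GGcCcTGTCCGGGCggGTgC
Plk2: GctCTTGCTCGcACAAGCga

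The stretch in Ccng1 (chr11:40755462-40755481) starts 195 bases before the annotated start of its window. That in Cdkn1a (chr17:29090928-29090947) starts 51 bases before the start annotated for the upstream of its 2 windows. The other Cdkn1a window (chr17:29093519-29093818) lies further downstream and does not include that stretch. Of all 32851 RefSeq windows, 0.0883% held a match with at most 1 mismatch, 6.29% one with at most 3, 30.2% one with at most 4 and 76.6% one with at most 5. The stretches shown for Mdm2, Phlda3 and Plk2, and the closest in the second Cdkn1a window, which is not printed, are thus no closer to the consensus than most windows hold. The consensus reads the same on both strands, so each scan covers both. With a spacer of 0 to 13 bases allowed between the elements, the Cdkn1a window held a match without mismatch, as did 0.0731% of windows, and the Bax window one with 1 mismatch, as did 1.09% of windows at most that far off. These are matches of letters in short windows. Binding was not measured, and sites further away were not searched.

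Of the 10 genes, 9 rose in dual-targeted lines relative to wildtype cells per the authors' deposited table, and none fell. Over all 16493 genes tested there, 10.8% were called higher and 10.1% lower by the authors' DESeq2 test (adjusted p under 0.05). At an unadjusted p under 0.05 all 10 were higher and 0 lower. The share of all genes at that looser threshold was not computed, so unadjusted counts here and below have no background beside them. The median log2 fold change of the 10 was 0.78 in the authors' deposited table, against 0.01 for all genes tested. The 10 genes were chosen with earlier results of these data known, so their contrast with all genes is not an independent test. Plk2 had the largest rise and Cdkn1a, often used as the readout of p53, had the smallest fold change and did not pass.

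Because the deposited tables hold means over libraries, levels below are group means of normalized counts solved from the 4 tables, and they carry no error. Counts per library were not analysed here, so neither overlap between libraries nor an SD can be given. Normalized counts grow with gene length and are compared for 1 gene across groups only. The deposited log2 fold changes are shrunken towards 0, so they are smaller than the ratios of these means for noisy genes.

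**Figure D1:**
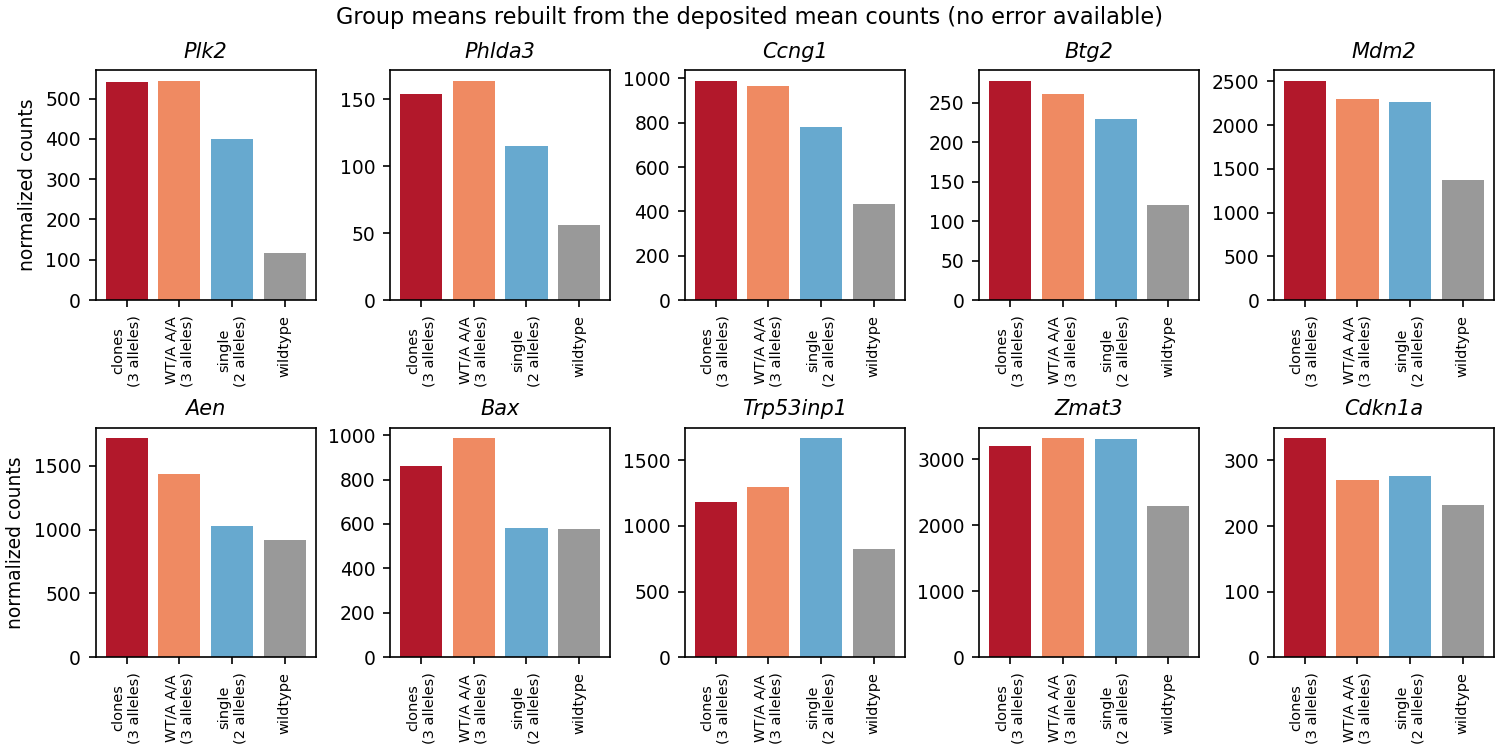
Group means of normalized counts, solved from the deposited tables, for the 10 genes in dual-targeted lines (the clones apart from the H3f3a WT/A H3f3b A/A cells), single-targeted lines and wildtype cells. Wildtype cells lie lowest for every gene, as for Plk2 with 541.6 in the clones against 116.7 in wildtype cells. The clones lie below single-targeted lines for Trp53inp1 and Zmat3, and the H3f3a WT/A H3f3b A/A cells for Trp53inp1 and Cdkn1a.

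The feedback genes Mdm2 and Ccng1 both rose. Mdm2 (chr10:117688875-117710758, minus strand), the ubiquitin ligase that degrades p53, had means of 2435 normalized counts in dual-targeted lines, 2261 in single-targeted lines and 1371 in wildtype cells. Both mutant groups stood above wildtype cells and close to each other. Its log2 fold change against wildtype cells was 0.79 ± 0.17 (SE, adjusted p = 1.29e-05) in dual-targeted lines and 0.64 ± 0.18 (adjusted p = 0.00395) in single-targeted lines per the authors' deposited tables. Ccng1 (chr11:40748552-40755311, minus strand) encodes cyclin G1, which brings the phosphatase PP2A to Mdm2. Its means were 979.7 normalized counts in dual-targeted lines, 780.1 in single-targeted lines and 433 in wildtype cells. The authors' deposited tables give Ccng1 log2 fold changes of 1.14 ± 0.19 (adjusted p = 2.52e-08) in dual-targeted and 0.74 ± 0.24 (adjusted p = 0.00756) in single-targeted lines against wildtype cells.

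Among the genes that slow the cell cycle, Plk2 and Btg2 rose while Cdkn1a did not pass. Plk2 (chr13:110395046-110400844, plus strand) encodes a polo-like kinase that acts around the start of DNA replication and on centrioles. It averaged 542.0 normalized counts in dual-targeted lines, 398.7 in single-targeted lines and 116.7 in wildtype cells, ratios to wildtype cells of 4.64 and 3.42. In the authors' deposited tables the Plk2 log2 fold change was 2.17 ± 0.22 in dual-targeted lines, with an adjusted p listed as 0, and 1.69 ± 0.27 (adjusted p = 3.74e-08) in single-targeted lines. Btg2 (chr1:134075170-134079120, minus strand), which binds the CCR4-NOT deadenylase and restrains proliferation, had means of 272 normalized counts in dual-targeted lines, 229.7 in single-targeted lines and 121 in wildtype cells. Its log2 fold change was 1.10 ± 0.23 (adjusted p = 6.16e-06) in dual-targeted and 0.76 ± 0.28 (adjusted p = 0.0202) in single-targeted lines per the authors' deposited tables.

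Cdkn1a (chr17:29090976-29100727, plus strand) encodes p21, the inhibitor of cyclin-dependent kinases through which p53 halts the cycle in G1. Its means lay close together, at 312 normalized counts in dual-targeted lines, 277 in single-targeted lines and 232 in wildtype cells. The authors' deposited tables list log2 fold changes of 0.36 ± 0.21 (adjusted p = 0.141, unadjusted p = 0.0438) in dual-targeted and 0.09 ± 0.16 (adjusted p = 0.777) in single-targeted lines against wildtype cells. Cdkn1a thus had one of the closest p53 consensus matches of the 8 genes with a window and the smallest change of the 10 in dual-targeted lines. It overlaps an annotated transcript on the opposite strand, AC167363.2, and the sources used here do not say whether counting used strand.

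All 4 genes that promote cell death rose in dual-targeted lines, and 1 of them in single-targeted lines. Phlda3 (chr1:135766119-135769136, plus strand), whose product keeps the survival kinase AKT off membrane lipids, averaged 157 normalized counts in dual-targeted lines, 115 in single-targeted lines and 55.9 in wildtype cells. Its log2 fold change was 1.38 ± 0.28 (adjusted p = 3.84e-06) in dual-targeted lines and 0.75 ± 0.41 (adjusted p = 0.0757) in single-targeted lines per the authors' deposited tables, and its standard errors in both were the largest of the 10. Aen (chr7:78895854-78911209, plus strand), an apoptosis-enhancing nuclease, had means of 1622 normalized counts in dual-targeted lines, 1030 in single-targeted lines and 919 in wildtype cells. The dual-targeted lines stood apart, and single-targeted lines lay near wildtype cells. Aen had log2 fold changes of 0.77 ± 0.18 (adjusted p = 1.21e-04) in dual-targeted and 0.08 ± 0.14 (adjusted p = 0.803) in single-targeted lines per the authors' deposited tables.

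Bax (chr7:45461697-45466898, minus strand), which opens the outer mitochondrial membrane in apoptosis, followed the same order. It averaged 901 normalized counts in dual-targeted lines, 583 in single-targeted lines and 577 in wildtype cells. The authors' deposited tables give it 0.58 ± 0.20 (log2 fold change, adjusted p = 0.01004) in dual-targeted and 0.01 ± 0.13 (adjusted p = 0.987) in single-targeted lines. Bax overlaps the protein-coding gene Gm45808 on the same strand, so its counts are uncertain. Trp53inp1 (chr4:11156431-11174379, plus strand), a nuclear p53 cofactor that also acts in autophagy, was the exception. Its means were 1218 normalized counts in dual-targeted lines, 1665 in single-targeted lines and 822 in wildtype cells. The Trp53inp1 log2 fold change was 0.50 ± 0.21 (adjusted p = 0.0338) in dual-targeted and 0.93 ± 0.22 (adjusted p = 3.02e-04) in single-targeted lines per the authors' deposited tables.

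Zmat3 (chr3:32334792-32366014, minus strand) encodes a zinc-finger protein that binds RNA and acts on splicing and mRNA decay. It had means of 3236 normalized counts in dual-targeted lines, 3308 in single-targeted lines and 2296 in wildtype cells, and at 31.2 kb it is the longest of them. In the authors' deposited tables Zmat3 changed by 0.45 ± 0.17 (log2, adjusted p = 0.0196) in dual-targeted lines, and had a log2 fold change of 0.41 ± 0.19 (adjusted p = 0.0900) in single-targeted lines.

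**Figure D2:**
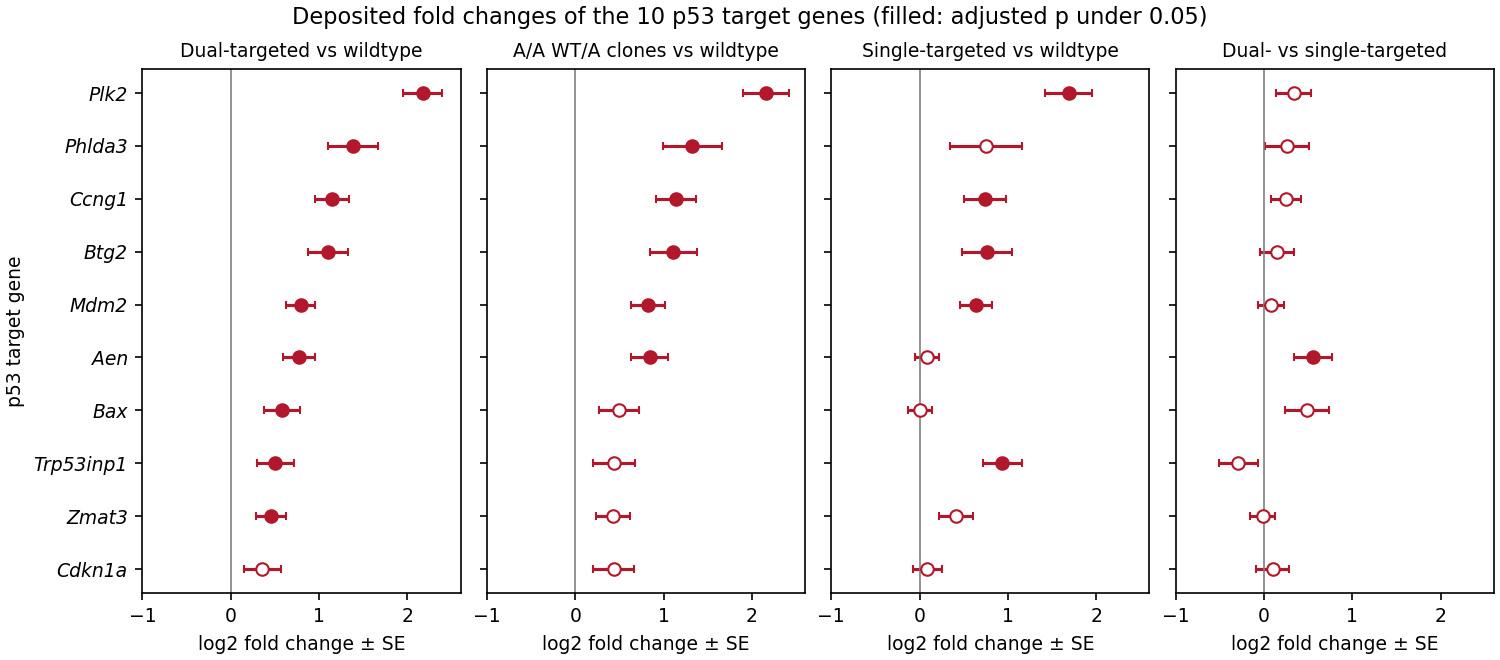
Deposited log2 fold changes with their standard errors for the 10 genes in the 4 comparisons, where filled points passed an adjusted p under 0.05. Plk2 is highest at 2.17 in dual-targeted and 1.69 in single-targeted lines against wildtype cells, and Cdkn1a has no filled point.

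In single-targeted lines against wildtype cells, 5 of the 10 genes rose per the authors' deposited table (Plk2, Ccng1, Mdm2, Btg2 and Trp53inp1) and 0 fell, where 1.49% of the 15030 genes tested were higher and 1.47% lower. At an unadjusted p under 0.05, 7 were higher and 0 lower by the same DESeq2 test. Their median log2 fold change was 0.69 in the authors' deposited table, against 0.00 for all genes tested. The single-targeted comparison shares its wildtype libraries with the dual-targeted one, so the directions in both are not independent.

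The difference between the mutant groups was tested directly in the comparison of dual-targeted with single-targeted lines, which also contrasts 3 mutant alleles with 2. Only Aen passed among the 10, higher by 0.56 ± 0.22 (log2, adjusted p = 0.0259) in dual-targeted lines per the authors' deposited table, where 4.37% of 13141 genes were called higher and 2.69% lower. At an unadjusted p under 0.05, 3 genes were higher and 0 lower. Bax, with 0.49 ± 0.25 (adjusted p = 0.0752), and Plk2, with 0.34 ± 0.20 (adjusted p = 0.147), came next in the authors' deposited table. Trp53inp1, at -0.29 ± 0.22 (adjusted p = 0.235), and Zmat3, at -0.01 ± 0.14 (adjusted p = 0.957), were the 2 of 10 below 0 in the authors' deposited table. For Mdm2 (0.08 ± 0.15, adjusted p = 0.727), Ccng1 (0.25 ± 0.17, adjusted p = 0.238) and Btg2 (0.15 ± 0.19, adjusted p = 0.538) the authors' deposited table shows no difference that passed. Missing the threshold does not show that the groups are alike. Thus a rise passed in dual-targeted and not in single-targeted lines for Aen, Bax, Phlda3 and Zmat3, but a difference between those groups passed for Aen alone.

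The dual-targeted group mixes genotypes, and the 2 clones of H3f3a A/A H3f3b WT/A were also compared alone with wildtype cells. Of the 10 genes, 6 rose per the authors' deposited table for the clones (Aen, Btg2, Ccng1, Mdm2, Phlda3 and Plk2) and 0 fell, with 9.05% of 15640 genes called higher and 10.3% lower. By the same DESeq2 test 10 were higher and 0 lower at an unadjusted p under 0.05, a looser threshold than that of these shares. Plk2 was at 2.16 ± 0.26 (adjusted p = 5.40e-15) and Phlda3 at 1.33 ± 0.33 (adjusted p = 1.44e-04) in this authors' deposited table. Since the clones are part of the dual-targeted group and share its wildtype libraries, these values are not independent of those above. Bax (0.50 ± 0.23, adjusted p = 0.0577), Zmat3 (0.43 ± 0.20, adjusted p = 0.0674) and Trp53inp1 (0.44 ± 0.24, adjusted p = 0.108) no longer passed in the authors' deposited table for the clones alone.

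Subtraction gives the level in the remaining dual-targeted line, H3f3a WT/A H3f3b A/A, which is a single library without error. It stood above wildtype cells for all 10 genes after each table was scaled to the same median gene. Unscaled, the line's median gene lay at -0.47 (log2 ratio to wildtype cells), and the line stood above wildtype cells for 9, with Cdkn1a (log2 ratio -0.25) below. Unscaled levels combine tables whose normalized counts differ in scale, which shifts all genes. This Cdkn1a ratio therefore does not show a level below wildtype cells. Plk2 had 541.6 normalized counts in the clones, 543.0 in the third dual-targeted line and 116.7 in wildtype cells. Mdm2 had 2503 in the clones, 2299 in that line and 1371 in wildtype cells. Bax had 859.6 in the clones, 985 in that line and 577 in wildtype cells. The clones were above that line for 5 of the 10 genes, so neither genotype lay above the other for most of them. Single-targeted means were likewise above wildtype cells for all 10 after scaling and for 8 without it. The exceptions were Aen (unscaled log2 ratio -0.06) and Bax (-0.19), where the unscaled median over all genes was itself -0.16. The authors' deposited table for single-targeted lines gives positive log2 fold changes for both, 0.08 ± 0.14 for Aen and 0.01 ± 0.13 for Bax. These unscaled ratios thus do not show levels below wildtype cells either.

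Of the 46 other p53 targets measured in dual-targeted lines against wildtype cells, 17 rose and 1 fell per the authors' deposited table, and their median log2 fold change was 0.20. By the same DESeq2 test an unadjusted p under 0.05 gave 17 higher and 3 lower, these 3 being 1 arrest, 1 repair and 1 metabolic gene. They are set out by role from a list drawn from textbook knowledge, beside the same background of 10.8% higher and 10.1% lower. Whether the 10 differ from the other targets was not tested.

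Of the further genes that halt the cell cycle, 6 of 8 rose and 0 fell in dual-targeted lines, with a median log2 fold change of 0.72 in the authors' deposited table. Ptprv, a receptor phosphatase gene acting in p53-induced arrest in mice, rose by 1.44 ± 0.30 (adjusted p = 6.44e-06), and Sfn, the 14-3-3 protein that holds cells in G2, by 1.63 ± 0.46 (adjusted p = 4.87e-04) per the authors' deposited table. In the clones alone Sfn was at 0.87 ± 0.47 (adjusted p = 0.0448) per the authors' deposited table, and its solved means were 84.9 normalized counts in the clones, 232 in the third dual-targeted line and 36.8 in wildtype cells. Psrc1, a microtubule regulator, rose by 0.84 ± 0.19 (adjusted p = 3.63e-05), and Plk3, a relative of Plk2, by 0.96 ± 0.29 (adjusted p = 0.00143) per the authors' deposited table. In the clones 5 of the 8 rose and 0 fell, beside 9.05% of all genes higher and 10.3% lower. Gadd45a rose in dual-targeted lines, by 0.54 ± 0.24 (adjusted p = 0.0369), and did not pass in the clones (0.38 ± 0.25, adjusted p = 0.190) per the authors' deposited tables.

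Of 9 further genes of cell death, 4 rose and 0 fell in dual-targeted lines, with a median of 0.21 in the authors' deposited table. Perp, a membrane protein of desmosomes and apoptosis, rose by 2.76 ± 0.47 (log2, adjusted p = 3.01e-08) per the authors' deposited table. Its means were low, at 91.8 normalized counts in dual-targeted lines, 29.7 in single-targeted lines and 12.0 in wildtype cells. The BH3-only killers Pmaip1 (0.73 ± 0.26, adjusted p = 0.00926) and Bbc3 (0.72 ± 0.29, adjusted p = 0.0173) and the death receptor Eda2r (0.61 ± 0.23, adjusted p = 0.0138) also rose per the authors' deposited table. In the clones alone Perp was at 2.12 ± 0.50 (adjusted p = 5.75e-05), while Pmaip1 (0.60 ± 0.29, adjusted p = 0.0567) and Bbc3 (0.60 ± 0.32, adjusted p = 0.0770) no longer passed, per the authors' deposited table. There 2 of the 9 rose, beside 9.05% of all genes, and 1 fell, beside 10.3%. That gene was Tnfrsf10b, at -0.92 ± 0.25 (adjusted p = 5.38e-04) per the authors' deposited table. Its solved means were 135 normalized counts in the clones, 325 in the third dual-targeted line and 277 in wildtype cells.

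Feedback, repair and metabolic targets held 7 of the 17 that rose. Of 5 further feedback genes, Siva1 rose by 0.60 ± 0.22 (adjusted p = 0.0146) and Rchy1, another ubiquitin ligase for p53, by 0.49 ± 0.20 (adjusted p = 0.0302) per the authors' deposited table, and 0 fell. Of 7 repair genes only Polk, a translesion DNA polymerase, rose, by 0.69 ± 0.25 (adjusted p = 0.00949) per the authors' deposited table, and 0 fell. Of 17 genes of metabolism and other roles 4 rose and 1 fell, led by Ak1, an adenylate kinase, at 0.82 ± 0.22 (adjusted p = 6.02e-04), and Rps27l, a ribosomal protein relative, at 0.91 ± 0.26 (adjusted p = 0.00112) per the authors' deposited table. The one that fell, at -0.56 ± 0.25 (adjusted p = 0.0338) per the authors' deposited table, was Gls2, a glutaminase, which did not pass in the clones alone (-0.50 ± 0.28, adjusted p = 0.0931). Of these 17 genes 3 rose and 0 fell in the clones, beside 9.05% of all genes higher and 10.3% lower. Gpx1 rose in dual-targeted lines, by 0.60 ± 0.24 (adjusted p = 0.0209), and did not pass in the clones (0.39 ± 0.24, adjusted p = 0.160) per the authors' deposited tables.

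In single-targeted lines 4 of the 46 other targets with an adjusted p rose and 0 fell, beside 1.49% of all genes higher and 1.47% lower, with 10 higher and 0 lower at an unadjusted p under 0.05 by the same DESeq2 test. They were Ptprv (1.33 ± 0.35, adjusted p = 0.00113), Polk (0.91 ± 0.25, adjusted p = 0.00208), Cpt1c (0.91 ± 0.26, adjusted p = 0.00251) and Eda2r (0.69 ± 0.24, adjusted p = 0.0131) per the authors' deposited table. Between dual-targeted and single-targeted lines 0 of 45 passed in the authors' deposited DESeq2 table, beside 4.37% of all genes higher and 2.69% lower. At an unadjusted p under 0.05 by that test, 7 were higher and 3 lower. The shares of all genes are for an adjusted p under 0.05 only. In the clones against wildtype cells 13 of 46 rose and 1 fell per the authors' deposited table, beside 9.05% of all genes higher and 10.3% lower.

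**Figure D3:**
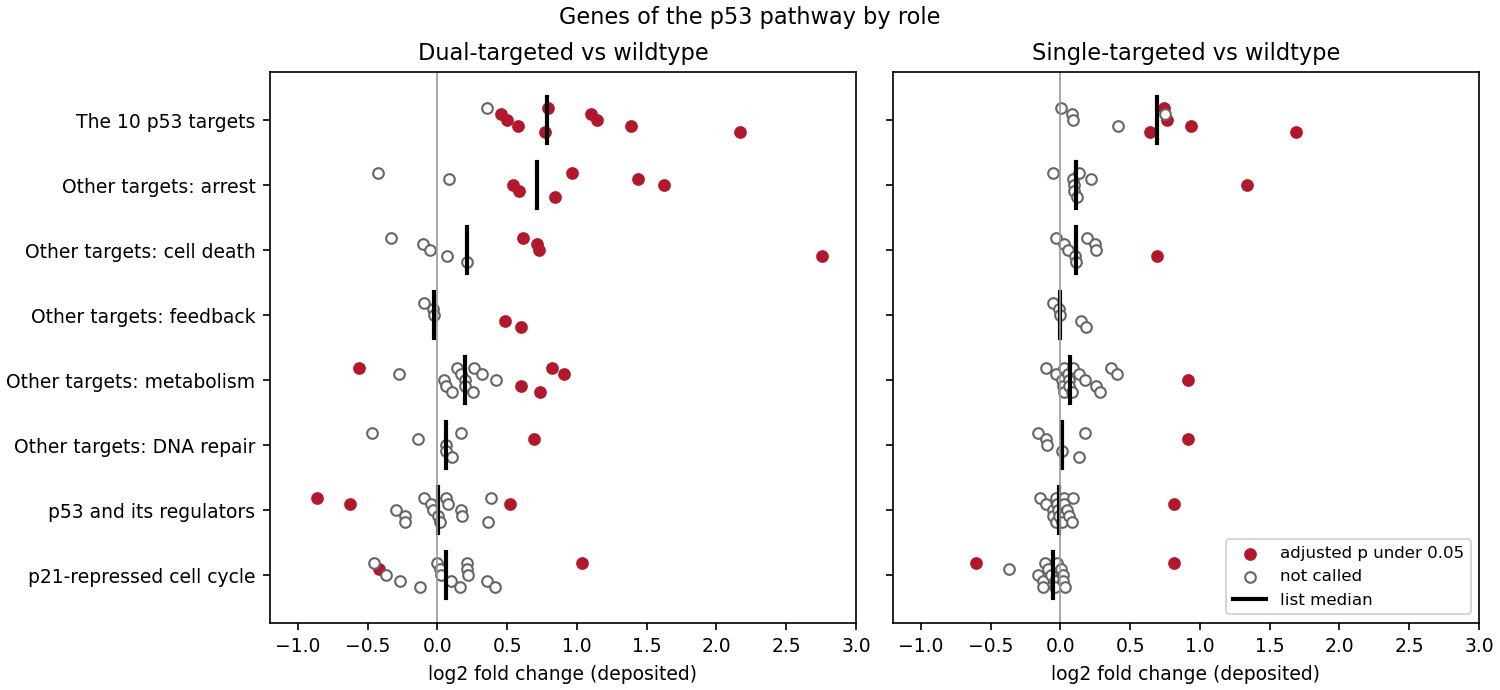
Deposited log2 fold changes of the 10 genes, the other p53 targets by role, the p53 pathway upstream and genes repressed through p21, for dual-targeted and single-targeted lines against wildtype cells, 1 point per gene with a bar at the median. The 10 genes have medians of 0.78 and 0.69, the further arrest genes in dual-targeted lines one of 0.72.

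The level of the p53 gene and of genes acting upstream of it was examined next. Trp53, which encodes p53, had a log2 fold change of 0.06 ± 0.17 (adjusted p = 0.825) in dual-targeted and -0.05 ± 0.15 (adjusted p = 0.871) in single-targeted lines against wildtype cells per the authors' deposited tables. Its means were 1146 normalized counts in dual-targeted lines, 994 in single-targeted lines and 1097 in wildtype cells, and p53 protein was not measured. Mdm4, the relative of Mdm2 that masks p53, rose in single-targeted lines by 0.81 ± 0.21 (adjusted p = 0.00113) and had 0.08 ± 0.19 (adjusted p = 0.789) in dual-targeted lines per the authors' deposited tables. Of 17 genes in this list, 1 rose and 2 fell in dual-targeted lines per the authors' deposited table, shares near or below the 10.8% higher and 10.1% lower of all genes. Rpl11, a ribosomal protein that can bind Mdm2, rose by 0.52 ± 0.24 (adjusted p = 0.0492) per the authors' deposited table, and did not pass in the clones alone (0.57 ± 0.28, adjusted p = 0.0604). The DNA damage kinase genes Prkdc (-0.87 ± 0.24, adjusted p = 7.34e-04) and Chek2 (-0.62 ± 0.18, adjusted p = 0.002) fell per the authors' deposited table.

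Genes that p53 lowers through p21, which drive DNA replication and mitosis, numbered 16. In dual-targeted lines 1 rose and 1 fell, with a median log2 fold change of 0.06 in the authors' deposited table. Over all genes tested there, 10.8% were higher and 10.1% lower. Birc5, the survivin gene of the chromosomal passenger complex, rose by 1.03 ± 0.18 (adjusted p = 1.05e-07) in dual-targeted lines, opposite to the repression the list is named for, and Aurkb, its partner kinase, fell by 0.42 on the log2 scale (SE 0.18, adjusted p = 0.0482) per the authors' deposited table. Aurkb did not pass in the clones alone (-0.42 ± 0.21, adjusted p = 0.0932) per the authors' deposited table. In the clones 2 of the 16 rose (Birc5 and Kif20a) and 0 fell, beside 9.05% of all genes higher and 10.3% lower. Kif20a was at 0.49 ± 0.21 (adjusted p = 0.0432) there and at 0.41 ± 0.19 (adjusted p = 0.0554) in dual-targeted lines per the authors' deposited tables. In single-targeted lines Birc5 rose by 0.82 ± 0.20 (adjusted p = 6.30e-04) per the authors' deposited table. There 1 of 16 rose and 1 fell, beside 1.49% of all genes higher and 1.47% lower.

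Relatives of the 10 genes did not share a direction in dual-targeted lines, where 10.8% of all genes were called higher and 10.1% lower. The families are small, and none was tested against that background. Among the 5 CDK inhibitors measured beside Cdkn1a, Cdkn1c, encoding p57, rose by 2.01 ± 0.34 (adjusted p = 2.65e-08) in dual-targeted lines per the authors' deposited table. Its means were 121 normalized counts in dual-targeted lines, 66.4 in single-targeted lines and 27.2 in wildtype cells. Cdkn1b, encoding p27, was at -0.47 ± 0.20 (adjusted p = 0.0394) and Cdkn3, a phosphatase listed with them, at -1.04 ± 0.41 (adjusted p = 0.00802) per the authors' deposited table, so both fell. Ccng2, the closest relative of Ccng1, fell in dual-targeted lines, at -0.86 ± 0.20 (adjusted p = 4.86e-05), and in single-targeted lines, at -0.75 ± 0.23 (adjusted p = 0.0053), in the authors' deposited tables. Cyclin G1 and G2 genes therefore moved in opposite directions, with Ccng2 means of 240.2 normalized counts in dual-targeted lines, 252 in single-targeted lines and 459 in wildtype cells.

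Of 13 BCL-2 family genes beside Bax, 5 rose and 1 fell in dual-targeted lines per the authors' deposited table. Of all genes, 10.8% were higher and 10.1% lower there. The survival genes Bcl2l1 (1.01 ± 0.19, adjusted p = 1.24e-06) and Mcl1 (0.68 ± 0.16, adjusted p = 2.17e-04) rose with the killers Bcl2l11 (0.69 ± 0.23, adjusted p = 0.00454), Pmaip1 and Bbc3 in the authors' deposited table. Without the third dual-targeted line Bcl2l11 no longer passed, at 0.46 ± 0.21 (adjusted p = 0.0644) in the clones per the authors' deposited table. In the clones 2 of the 13 rose (Bcl2l1 and Mcl1) and 2 fell (Bcl2l2 and Bmf), beside 9.05% of all genes higher and 10.3% lower. Bmf, another killer, fell in dual-targeted lines, with -1.03 ± 0.27 (adjusted p = 2.37e-04) per the authors' deposited table. Among relatives of Btg2, Btg3 rose by 0.59 ± 0.21 (adjusted p = 0.0118) per the authors' deposited table, while Btg1, at -0.71 ± 0.17 (adjusted p = 1.88e-04), and Tob1, at -0.54 ± 0.21 (adjusted p = 0.0202), fell. Phlda1, a relative of Phlda3, rose by 2.93 ± 0.43 (adjusted p = 1.67e-10) per the authors' deposited table, with means of 136 normalized counts in dual-targeted lines, 30.5 in single-targeted lines and 16.2 in wildtype cells. Phlda2, an imprinted gene as Cdkn1c is, rose by 0.89 ± 0.43 (adjusted p = 0.0243), and Zmat2, a splicing factor and relative of Zmat3, by 0.70 ± 0.22 (adjusted p = 0.00373) per the authors' deposited table. Neither Tob1 (-0.49 ± 0.24, adjusted p = 0.0686) nor Phlda2 (0.64 ± 0.47, adjusted p = 0.111) passed in the clones alone per the authors' deposited table. Of the 4 PLK genes measured beside Plk2, only Plk3 passed in dual-targeted lines, also at an unadjusted p under 0.05.

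Gene length moved with fold change across the genome. In dual-targeted lines against wildtype cells Spearman's rho between length and the authors' deposited log2 fold change was -0.218 across 11457 genes with a mean count of at least 50, a description since genes are not independent. Of the 10 genes 9 are shorter than the genome's median of 22.1 kb in that set. The trend at their lengths lay between -0.01 and 0.15, and the median of the 10 was 0.75 less the trend and 0.78 as given in the authors' deposited table. Plk2 kept 2.02, Phlda3 1.36, Ccng1 1.00 and Btg2 0.97 (log2) after the trend was taken from the deposited values, while Bax kept 0.43 and Cdkn1a 0.23. Between dual-targeted and single-targeted lines rho was -0.333, and the median of the 10 was 0.09 less the trend against 0.20 as given in the authors' deposited table. The 10 genes lie on 8 chromosomes, whose median log2 fold changes in dual-targeted lines were between -0.03 and 0.06 in the authors' deposited table.

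**Figure D4:**
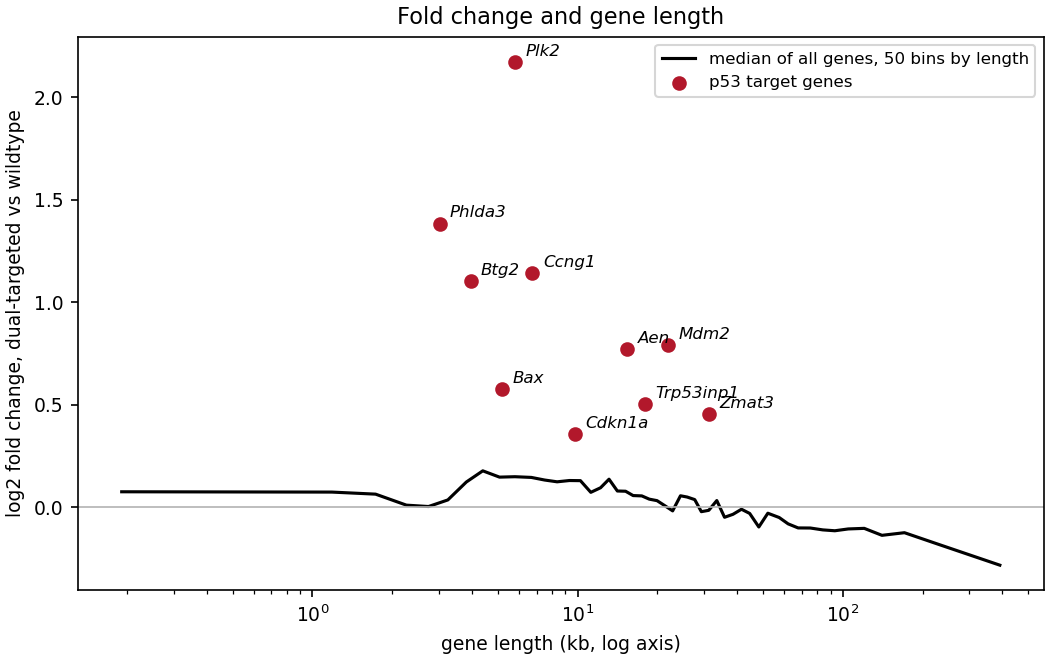
Deposited log2 fold change in dual-targeted lines against wildtype cells by gene length (log axis, kb), with the 10 genes named and the median trend over length bins as a line. The trend at the lengths of the 10 genes stays between -0.01 and 0.15, and all 10 lie above it.

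The labelled cell type was checked against markers. All 10 embryonic stem cell markers were measured, and 6 rose and 0 fell in dual-targeted lines per the authors' deposited table, with mean counts of 419 to 4211. Over all genes tested there, 10.8% were higher and 10.1% lower. Of fibroblast markers 2 of 8 were measured and 0 called, at 25.2 mean counts or less in the authors' deposited table, with 0 past an unadjusted p under 0.05. Of endoderm markers 4 of 7 were measured and Sox7 rose at a mean count of 7.29, and of neural markers 5 of 7 were measured and Nes and Tubb3 rose per the authors' deposited table. In the clones alone 5 stem cell markers rose and 0 fell, and 2 neural markers rose and 1 fell, beside 9.05% of all genes higher and 10.3% lower. Sox7 was not measured there. Solved means of Nes were 113 normalized counts in the clones, 387 in the third dual-targeted line and 37.9 in wildtype cells. In such bulk libraries fewer cells of a type and less RNA per cell cannot be told apart, and the part of cell state or gene length in the changes of the 10 genes was not tested.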

How the data were processed

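TT-seq libraries of 8 cell populations were used through 4 tables of the authors' own comparisons. The builds mm10 and GRCm38.p6 and the tools deepTools, DESeq2, featureCounts, SAMtools and STAR are named, without versions, per the submitters' processing notes. The sources used here do not give the use of strand in counting. The deposited signal per gene is, over all libraries of a comparison, the authors' mean of normalized counts, per the file headers. The log2 fold changes and standard errors were made by the authors before deposit and are read here as shrunken, since 100% of called genes had a fold smaller than their p implies. The p-values and adjusted p-values are the authors' deposited DESeq2 values, and genes with an adjusted p under 0.05 were called. Depth per library is unknown.

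Means of each group, the clones and the third dual-targeted line were solved from the 4 mean counts, with tables scaled by 0.983, 1.06 and 0.957 to equal median genes. Their signs matched the fold changes for 100% of the called genes checked (2504, 351, 836 and 2284 in the 4 tables), which sets their direction, and the solution was tested on simulated data. Of 15571 genes, 2 had a mean below 0. Gene positions came from GENCODE M21 (GRCm38) and promoter windows from RefSeq (GRCm38.p6). The scan for the p53 consensus was set up after the sequences were seen.

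Members, the 16 other lists and their tests were chosen with earlier results of these data known. Named from each list were up to 4 genes with the smallest adjusted p under 0.05 in dual-targeted lines against wildtype cells, plus Trp53, Mdm4, H3f3a, H3f3b and relatives of the 10 genes. Genes called in other comparisons, Gls2, Gadd45a, Gpx1 and 4 markers were named after their values were seen. Alternatives changed the threshold, the adjustment, the scaling and the lines and genes included. Values were computed in Python 3.11.15 with pandas 2.3.3, numpy 2.4.6 and scipy 1.17.1, and plotted with matplotlib 3.10.9.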

Additional observations from a re-analysis of the deposited data

Results flagged for a closer look

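For 9 genes of the lists above, among the members, the leading genes of each pathway list, the relatives and the markers, the effect of dual targeting differed from that of single targeting in the direct comparison of dual-targeted with single-targeted lines (adjusted p under 0.05, the authors' deposited DESeq2 table). Higher in dual-targeted lines were Aen, by 0.56 ± 0.22 (log2 fold change and SE, adjusted p = 0.0259), and Phlda1, by 1.89 ± 0.58 (adjusted p = 0.00373), in the authors' deposited table. Rpl11, at 0.77 ± 0.28 (adjusted p = 0.0145), Bcl2l1, at 0.54 ± 0.21 (adjusted p = 0.0278), and Mcl1, at 0.53 ± 0.18 (adjusted p = 0.0159), were also higher in the authors' deposited table. Of the markers, Pou5f1, a pluripotency factor, at 1.02 ± 0.25 (adjusted p = 7.25e-04), and Tubb3, a neuronal tubulin, at 1.20 ± 0.36 (adjusted p = 0.00378), were higher as well per the authors' deposited table. Lower in dual-targeted lines were Mdm4, at -0.65 ± 0.26 (adjusted p = 0.0297), and Prkdc, at -0.90 ± 0.27 (adjusted p = 0.00550), in the authors' deposited table. Single-targeted lines gave 2 libraries, and libraries were not analysed one by one, so no library could be left out here.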

How the results depend on the processing

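No called value of the 10 genes and no median of the 10 changed sign under any alternative tried on the deposited fold changes. Changes of threshold or adjustment left the fold changes as they were, so they could not change a sign. Cdkn1a, not called between dual-targeted and single-targeted lines, went from 0.10 to -0.01 (log2) less the trend on gene length. Called higher in the authors' deposited tables were 9 of the 10 genes in dual-targeted and 5 in single-targeted lines against wildtype cells, 1 between dual-targeted and single-targeted lines, and 6 in the clones against wildtype cells. With Bonferroni adjustment of the deposited p-values these became 5, 2, 0 and 2. Between dual-targeted and single-targeted lines an adjusted p under 0.01 gave 0, and one under 0.1 gave 2. Shares of all genes at these other thresholds were not computed. Leaving out the third dual-targeted line (H3f3a WT/A H3f3b A/A) gave 6 in place of 9 in dual-targeted lines, Bax, Trp53inp1 and Zmat3 no longer passing. With only the 8 genes that overlap no other annotated gene, an alternative chosen after seeing the data, the counts were 8, 5, 1 and 6. Of 322 values of the 10 genes under the alternatives, 297 stayed on their side of the threshold, 20 lost it and 5 gained it. Alternatives that changed only the fold change or the genes included kept the deposited adjusted p. Their values could not change side, so the 297 is not a measure of robustness. Without scaling, 24 of 40 ratios of solved means moved, and the median log2 ratio of the 10 genes in dual-targeted lines to wildtype cells was 0.62 in place of 0.82. The unscaled median over all genes was itself shifted, to -0.18 in dual-targeted lines. Unscaled ratios combine tables whose normalized counts differ in scale, so they do not show that mutant lines made less RNA. No paired analysis was possible because the deposited tables hold no values per library, and leaving out other single libraries could not be run for the same reason. Depth per library is unknown, so a change that did not pass may lie below what these libraries can show.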
